A study of Mus musculus with 8 samples.

Results

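The genes described here as a set were Slc40a1, Hmox1, Trf, Axl, Mertk, Vcam1, Adgre1, Cd163, Cd5l and Spic, which are known from the macrophages that clear aged erythrocytes in spleen and marrow. All 10 members were found by symbol among the 23084 genes of the series, each with 1 row. They were chosen by symbol at a time when their fold changes between Lmna KO and wt CD11b+Ly6C+ cells were known from earlier work on these data. Those fold changes, with their errors and p-values, are columns of the authors' own comparison and were not used, so the effect of lamin A/C loss on these genes was not analysed here.

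The study sorted CD11b+Ly6C+ (monocytic) and CD11b+Ly6G+ (granulocytic) myeloid cells from spleens of C57BL/6 mice aged 6 to 8 weeks and sequenced their RNA. The samples fall into 4 groups of 2 (8 samples in all), which are wt CD11b+Ly6C+, wt CD11b+Ly6G+, Lmna KO CD11b+Ly6C+ and Lmna KO CD11b+Ly6G+ cells. In the KO mice (LmnaMyeKO), LysM-Cre, driven from the Lyz2 locus, deletes floxed Lmna in cells of the myeloid lineage, tissue macrophages among them. The subset follows the sample titles, because all samples carry the same cell-marker label (CD11b+Ly6C+), and neither the labels nor the methods say whether these mice carried tumors.

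The measurement used was the authors' mean normalized count, 1 value per gene. It is the average over libraries of each gene's read count after division by a size factor. The factor puts the libraries on a common scale. The libraries that enter it could be counted from the low values. All 1223 of the 1223 means under 0.4 were sums of whole reads in 8 libraries within a tolerance of 2e-06, whereas sums of this kind cover 0.229% of that range. The mean therefore spans 8 libraries, as many as the series has, and covers both genotypes and both subsets. The 8 step sizes give size factors from 0.796 to 1.05 in 7 libraries and of 1.91 in the other one. No step was matched to a sample. The reads per sample stated in the methods span a smaller fold range than these factors. The value of a gene in a single library can lie anywhere from 0 to the mean times the number of libraries, and no SD can be given. No difference between genes below was tested.

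Erythrocyte-clearing macrophages, such as those of the splenic red pulp, engulf old red blood cells, break down their heme and return the iron to plasma. Heme oxygenase opens the heme ring, ferroportin carries the freed iron out of the cell, and transferrin binds it in plasma. Ferritin stores what is not exported, and iron regulatory proteins adjust ferritin, ferroportin and the transferrin receptor by binding a hairpin in their mRNAs, the iron-responsive element. The ETS factor Spi-C drives the red pulp program, and heme induces it by degrading the repressor Bach1.

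The hairpin is shown first because it links ferroportin, a member, to the ferritins and the transferrin receptor. All 10 members and 27 other genes of heme and iron handling were searched in GENCODE M21 (mm10) for the loop CAGTGN between 5 paired bases, followed on the 5' side by a bulged C and by at least 4 of 5 further pairs (G-U pairs allowed). Of these 37 genes, 4 held such an element in a UTR. Each is printed 5' to 3' with its 6 loop bases in capitals.
Slc40a1: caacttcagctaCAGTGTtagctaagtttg
Fth1: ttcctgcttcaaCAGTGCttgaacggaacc
Ftl1: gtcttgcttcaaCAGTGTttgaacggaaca
Tfrc: cattatcgggagCAGTGTcttccataatgc

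The Slc40a1 element lies in the 5' UTR, in exon 1 of 8, at chr1:45925464-45925493 on the minus strand. Those of Fth1 (chr19:9982732-9982761, plus strand) and Ftl1 (chr7:45459778-45459807, minus strand), which encode the ferritin heavy and light chains, also lie in the 5' UTR in exon 1. Tfrc, the transferrin receptor gene, held 4 elements in its 3' UTR, all in exon 19, and the one printed is at chr16:32631598-32631627 on the plus strand. Slc40a1 was the only member with a match, and the other 9 held none under this definition.

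To compare genes, the mean was divided by gene length, taken as all annotated exon bases of a gene merged, and values are given as mean normalized count per kb. The longest annotated transcript served as a second length, because merged exons overstate the transcript of some genes, by up to 2.29 times among the members (Slc40a1). On this scale the median of all genes was 18.8 per kb. All 10 members lay above it, from 348 per kb for Cd163 to 12182 per kb for Hmox1, a span of 35.0-fold (31.8-fold with the longest transcript). The level of 7 members was higher than that of 97% of all genes.

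**Figure D1:**
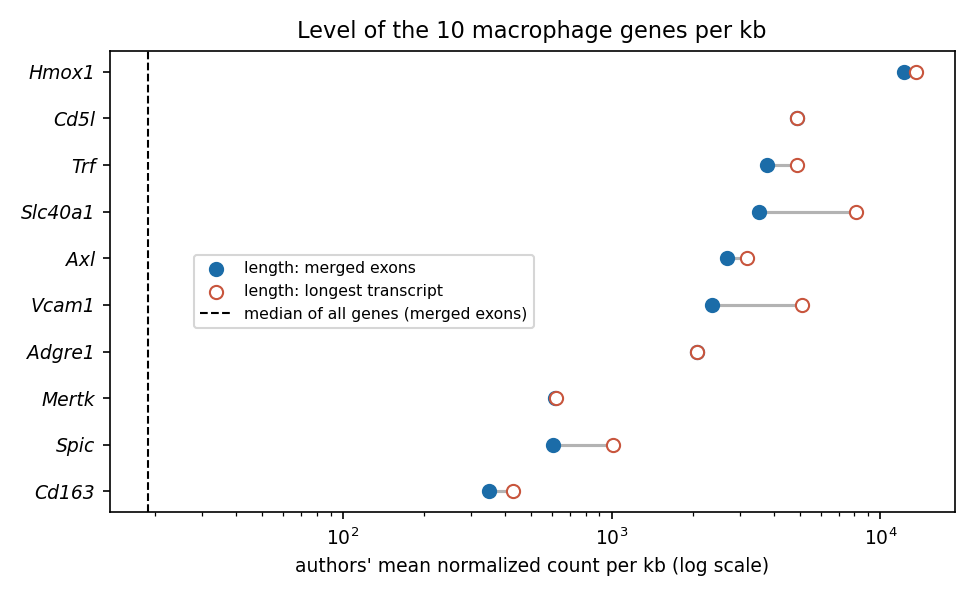
Mean normalized count per kb of each of the 10 genes over the 8 pooled libraries, on a log axis, with merged exons (filled) or the longest transcript (open) as the length and the median of all genes (dashed, 18.8 per kb); the open symbol hides the filled one where both lengths are equal. Hmox1 is highest and Cd163 lowest with either length, while Slc40a1 and Vcam1 move most from one length to the other.

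Hmox1 encodes the inducible heme oxygenase and lies on chromosome 8 (75093621 to 75100589, plus strand, mm10). Its mean normalized count was 21331, or 12182 per kb, above 99.7% of all genes. It was the highest of the 10 per kb with either length. Hmox2, the constitutive heme oxygenase, had 644 per kb, so that the inducible form was 18.9 times higher (16.5 times with the longest transcript). The biliverdin reductase genes Blvrb and Blvra had 499 and 257 per kb.

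Slc40a1 encodes ferroportin, the known cellular iron exporter, and lies on chromosome 1 (45908068 to 45926523, minus strand). Its mean normalized count of 31789 was the largest of the 10 before division by length. Per kb it had 3532 with merged exons, which put it 4th, and 8093 with the longest transcript, which put it 2nd. Hamp, the gene of hepcidin, the peptide hormone that degrades ferroportin, has no row under that symbol. Slc11a1, which moves iron out of the phagosome, had 2210 per kb, and Slc48a1, which moves heme out of it, had 1130 per kb.

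Trf encodes transferrin, the iron carrier of plasma, and lies on chromosome 9 (103204001 to 103230444, minus strand). Its mean normalized count was 12604, or 3796 per kb. Its receptor gene Tfrc had 133 per kb, 28.6 times less (29.2 times with the longest transcript). The second receptor, Tfr2, had 6.32 per kb, below the median gene.

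Axl and Mertk encode receptor tyrosine kinases that recognise phosphatidylserine on dying cells through bridging proteins. Axl (chromosome 7, 25757273 to 25788705, minus strand) had a mean normalized count of 13569, or 2696 per kb. Mertk (chromosome 2, 128698956 to 128802894, plus strand) had a mean normalized count of 2669, or 615 per kb. Axl was thus 4.38 times higher per kb (5.13 times with the longest transcript). Tyro3, the remaining receptor of the family, had a mean normalized count of 8.06, and its level per kb was higher than that of only 21.8% of all genes. The bridging ligand genes Gas6 and Pros1 had 87.7 and 46.2 per kb.

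Vcam1 encodes an adhesion molecule that marks red pulp macrophages and is also made by stromal and endothelial cells. It lies on chromosome 3 (116109949 to 116129688, minus strand) and had a mean normalized count of 20903, or 2357 per kb (5113 with the longest transcript). The genes of its integrin partners, Itga4, Itgb1, Itgb7 and Itga9, had 578, 989, 1003 and 272 per kb. Adgre1, which encodes the macrophage antigen F4/80, lies on chromosome 17 (57358691 to 57483527, plus strand), and its mean normalized count was 6749, or 2084 per kb. Itgam, the gene of the CD11b used in the sort, was 5.16 times higher than Adgre1 per kb.

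Cd163 and Cd5l encode scavenger receptor cysteine-rich proteins, the first a receptor for hemoglobin-haptoglobin complexes and the second a secreted macrophage protein. Cd163 (chromosome 6, 124304656 to 124330527, plus strand) had the lowest level of the 10, with a mean normalized count of 1901, or 348 per kb, still above 86.5% of all genes. Hp, the gene of haptoglobin, had 26391 per kb, higher than all members, and Hpx, the gene of hemopexin, had 2.53 per kb. Cd5l (chromosome 3, 87357881 to 87371073, plus strand) had a mean normalized count of 9961, or 4893 per kb, 14.1 times the level of Cd163 (11.4 times with the longest transcript). Its start lies 1.12 Mb from that of Lmna, the targeted gene on the same chromosome, and the start of Vcam1 lies 27.6 Mb from it.

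Spic, the gene of Spi-C, lies on chromosome 10 (88674772 to 88685015, minus strand). Its mean normalized count was 2315, or 603 per kb (1011 with the longest transcript). Spi1, which encodes the related factor PU.1, was 7.67 times higher per kb (6.06 times with the longest transcript). Spib, the third factor of the family, had 1061 per kb. Bach1, the heme-sensing repressor, had 796 per kb, and Nfe2l2, whose product activates Hmox1, had 1409 per kb. Mertk and Spic exchange places in the order when the longest transcript is the length.

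**Figure D2:**
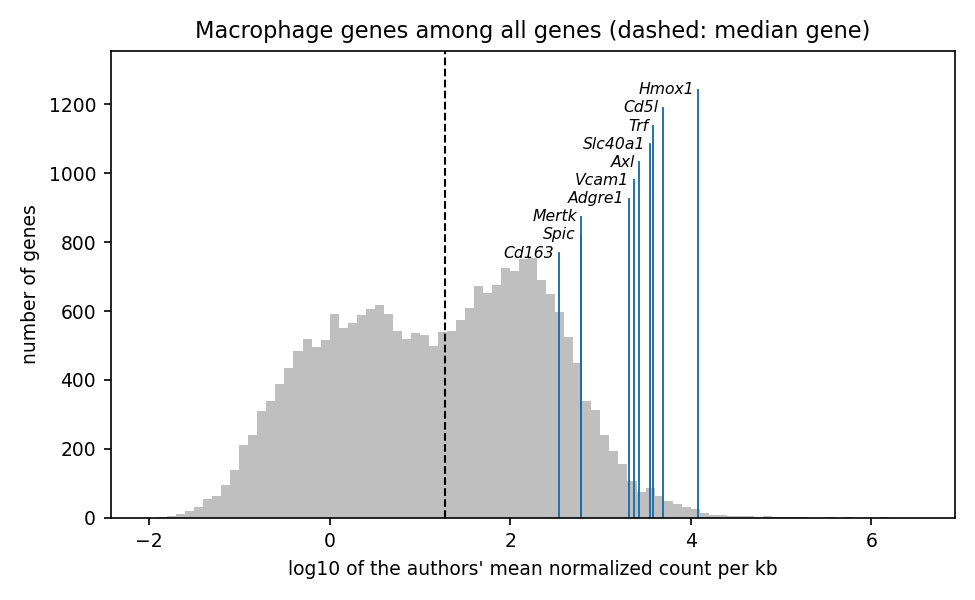
Number of genes (bars, 0.1 wide on the log10 scale) by mean normalized count per kb with merged exons, with the 10 macrophage genes (blue lines) and the median gene (dashed). Cd163, Spic and Mertk stand near the right shoulder of the distribution, and the other 7 stand in its tail, at 2084 per kb or more.

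Of the 29 genes of heme and iron handling, 27 have a row under their symbol (the exceptions are Flvcr1 and Hamp), and 22 of these lay above the median gene per kb (23 with the longest transcript). Their median was 499 per kb, against 2526 for the members. Only 3 exceeded Hmox1, namely Ftl1 with 61764, Lcn2 with 49923 and Hp with 26391 per kb. Fth1 had 10226 per kb, below Hmox1, but with the longest transcript it had 17204 against 13595 for Hmox1, so that 4 genes then exceeded Hmox1. Lcn2 and Hp are also known as products of neutrophil granules, and ferritin genes have many processed pseudogenes with which they can share reads. The low end held Heph (0.173), Cybrd1 (1.43) and Hpx (2.53 per kb), of which Heph encodes the ferroxidase of the gut and Cybrd1 an iron reductase of the gut. Among the sensors and regulators, Fbxl5 had 1066, Ireb2 268 and Aco1 142 per kb. Of the iron chaperones and the ferritin autophagy receptor, Pcbp1 had 1767, Pcbp2 924 and Ncoa4 927 per kb.

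Of 16 genes of apoptotic cell uptake, 14 lay above the median gene per kb and 4 above Cd163. Rac1, a GTPase of the actin cytoskeleton, was highest with 1610 per kb, and Lrp1, a scavenger receptor that also takes up heme-hemopexin, followed with 664 per kb. Megf10 was lowest with 0.159 per kb. Timd4, a phosphatidylserine receptor of resident macrophages, had 187 per kb.

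Other genes known from tissue macrophages were read beside the set, which does not test its label. All 14 of that list lay above the median gene per kb, with a median of 969 per kb, and 9 of them lay above Cd163. All 6 B-cell genes also passed both of these marks, so passing them is not particular to macrophage genes. The complement genes C1qb, C1qa and C1qc had 9704, 9032 and 5813 per kb, in the range of the highest members. Siglec1 and Marco, which mark macrophages of the marginal zone, had 223 and 153 per kb, and Vsig4 had 90.9 per kb. The mean thus holds transcripts of genes known from tissue macrophages. Whether they come from the sorted cells themselves, from other cells or from free RNA was not tested.

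Markers of the other cells that the samples could hold were read on the same scale. Neutrophil genes were highest, with a median of 60182 per kb (11 genes, 8 above Hmox1, or 7 with the longest transcript), and S100a9 reached 1389950 per kb. Monocyte genes had a median of 2222 per kb, from Cx3cr1 with 157 to Lyz2 with 79128 per kb. B-cell genes had a median of 1180 per kb (6 of 6 above Cd163), with Cd79a at 4065 per kb. T- and NK-cell genes had a median of 168, erythroid genes 81.1, platelet genes 31.9, dendritic-cell genes 26.6, and stromal and endothelial genes 7.20 per kb. In the last list, 1 of 7 genes lay above the median gene (Pecam1, 323 per kb, also made by leukocytes). With the longest transcript 2 did, and Pecam1 (584 per kb) then exceeded Cd163 (428 per kb). Pdgfrb, Col1a2 and Cdh5 had 3.67, 2.18 and 7.20 per kb. Above the median gene lay 6 of 6 T- and NK-cell, 7 of 7 erythroid, 5 of 5 platelet and 3 of 6 dendritic-cell genes. Nkg7 of the T- and NK-cell list (519 per kb) and Itgax of the dendritic-cell list (542 per kb) exceeded Cd163 with merged exons (348 per kb). Of the erythroid genes, Hbb-bs and Hba-a1 had 11172 and 5741 per kb while Klf1, Slc4a1 and Alas2 ranged from 36.0 to 120 per kb. Fewer cells of a type and less RNA per cell cannot be told apart in such bulk values.

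**Figure D3:**
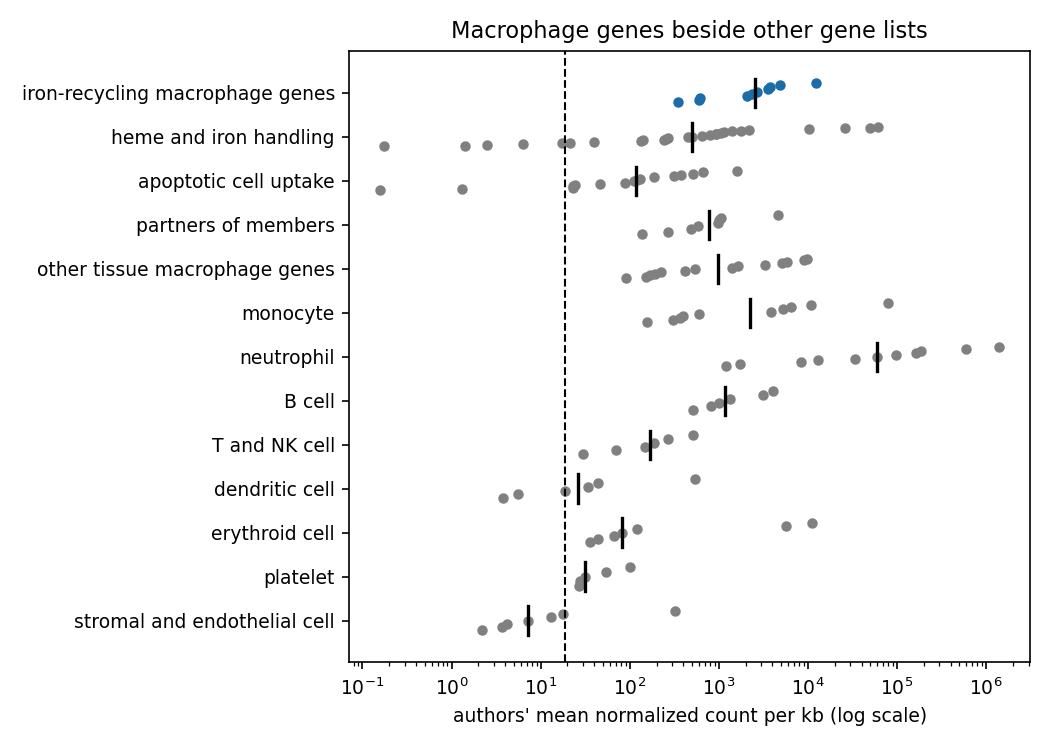
Mean normalized count per kb (log axis, merged exons) of each gene in the 10-gene set (blue) and in 12 other lists (grey), with list medians (black bars) and the median of all genes (dashed). The set lies between 348 and 12182 per kb, below most neutrophil genes. The median of the stromal and endothelial list is 7.20 per kb, but its highest gene, Pecam1 (323 per kb), stands next to Cd163.

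Lmna itself had a mean normalized count of 79.5, above the median of 46.8 over all genes, but 13.6 per kb, below the median gene on that scale (20.1 against 22.5 with the longest transcript), and Lmnb1 had 1589 per kb. Since the mean pools both genotypes, it does not check the deletion.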

How the data were processed

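Total RNA of sorted splenic myeloid cells was sequenced (8 samples). Per the submitters' processing notes and the methods, the authors trimmed reads with cutadapt 1.14, mapped them to mm10 with STAR 2.5.2b, quantified genes with RSEM 1.3.0 and GENCODE M12, and used DESeq2 1.20.0. The deposited signal is the authors' mean of counts divided by size factors, not divided by length. The other deposited columns hold the authors' own comparison between genotypes (log2 fold change, its error, a test score, p-values and a fold change). None of them was used.

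The planned count test was not run, since no column gives values per sample. The methods state reads per sample as a range, but which depth belongs to which sample is unknown, and no interval was computed. Of 23084 identifiers, 23004 were found in GENCODE M21 (same build), which gave positions and lengths. For 28 symbols that occur more than once (none a member), the row with the highest mean was used. The number of pooled libraries was found by expressing low means as sums of whole reads, a step tested on simulated data. Python 3.11.15, numpy 2.4.6 and pandas 2.3.3 were used.

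The members and all lists were chosen with earlier results of these data known. Named are all members, Lmna, Lmnb1, genes of the lists on heme and iron handling, apoptotic cell uptake and partners of the members, and the genes with the highest and lowest mean of the other lists. Other marker genes were named after their values were seen. Values of some single marker genes are not reported here.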

Additional observations from a re-analysis of the deposited data

How the results depend on the processing

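No paired analysis was possible because the column used pools all samples. For the same reason the count test, the fits that leave out each replicate, other normalizations and a count filter were not run. Counting only protein-coding genes or only the 14312 genes with a mean of at least 10 moved no member's percentile of the mean by more than 6.99 points. The percentile per kb, an alternative chosen after seeing the data, moved by at most 8.22 points, and its lowest value was 78.3 (Cd163, against genes with a mean of at least 10). With the longest transcript as the length, 3 of the 10 levels per kb moved over 1.5-fold: Slc40a1 to 8093, Vcam1 to 5113 and Spic to 1011. Only 3 of the 10 genes kept their place in the order per kb (Hmox1 first, Adgre1 7th and Cd163 last). The span between the highest and the lowest was 31.8-fold in place of 35.0-fold.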
